A study of Mus musculus with 20 samples.

Results

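The ATP-binding cassette (ABC) pumps described here are 9 genes of the kidney tubule: Abcc2, Abcc4, Abcb1a and Abcb1b, whose products sit in the apical membrane, and Abcc3, Abcc1, Abcc5, Abcc6 and Abcc10. They were chosen by gene symbol among the 24762 genes of the joined count tables, and all 9 were found. RNA was taken from kidneys of male mice that had been orchidectomised and then given testosterone or vehicle for 4 days, and poly(A) libraries were sequenced. Every animal was on the C57BL/6J background, so removal of the testes and the strain were shared by all groups. The 4 groups of 5 libraries were wild type with vehicle, wild type with testosterone, ARLmon/Y with vehicle and ARLmon/Y with testosterone. The labels give neither the age of the mice nor the dose. Nor do they tie a library to an animal, so p-values here measure only how far these libraries spread, which may be technical in part.

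ABC pumps spend ATP to push organic molecules out of the cell against a gradient. In the proximal tubule, uptake carriers of the blood side bring drugs, hormones and their conjugates into the cell, and apical pumps pass them into the urine. The multidrug resistance proteins of the Abcc family move anions such as glutathione and glucuronide conjugates, and P-glycoprotein, which mice encode in a pair of neighbouring genes, Abcb1a and Abcb1b, moves uncharged and cationic compounds.

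Read totals ran from 8342000 to 38101526 per library, and the 9 genes had between 13 and 14591 reads per library. Depth differed between groups. The median total was 19501503 in wild type vehicle, 8845274 in wild type testosterone, 14375849 in ARLmon vehicle and 14978740 in ARLmon testosterone. The smallest counts, 13 to 47 reads, belonged to Abcb1b in wild type testosterone libraries, where Abcb1a had 18 to 47 and Abcc3 20 to 47. Odc1, a gene known to respond to androgen, averaged 206 ± 32.4 CPM (read counts scaled by library size with TMM factors; means are given ± SD with n = 5) with vehicle and 1509.7 ± 119 with testosterone in wild type, and 202 ± 24.2 and 188 ± 26.8 in ARLmon. All 10 proximal tubule markers were found in every group, with a summed level of 10387 to 18793 CPM per library. ARLmon vehicle library GC078620 held 31.9 CPM of adrenal gland markers, against at most 2.13 in any other library. It also had the highest level in its group for 5 of the 9 genes, and a link between the 2 was not tested. Libraries GC078604 (wild type vehicle) and GC078607 (wild type testosterone) each had the lowest level in their group for 6 of the 9 genes, and GC078618 (ARLmon vehicle) for 5. Values are given per library as wild type vehicle GC078602 to GC078606, wild type testosterone GC078607 to GC078611, ARLmon vehicle GC078617 to GC078621 and ARLmon testosterone GC078612 to GC078616, in the order of these codes within each group.

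Abcb1a (ENSMUSG00000040584, chr5:8660077-8748575) and Abcb1b (ENSMUSG00000028970, chr5:8798147-8866315) lie side by side on the plus strand of chromosome 5 (GENCODE M21, GRCm38), and their reads can be hard to separate. Their coding sequences of 3828 bases each were 88.3% identical over 3816 aligned bases. Of all 50-base windows, 15.5% of the Abcb1a transcript and 18.04% of the Abcb1b transcript were found unchanged in the other. The longest shared run was 338 bases, coding bases 1357 to 1694 of Abcb1a, and its first 90 bases show what a read from either gene would look like there.
Abcb1a and Abcb1b, shared run: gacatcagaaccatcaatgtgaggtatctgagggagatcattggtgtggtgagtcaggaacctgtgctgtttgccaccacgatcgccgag

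Elsewhere the genes part clearly. The 60-base stretch with the most differences, coding bases 1913 to 1972 of Abcb1a and 1922 to 1981 of Abcb1b, held 25 differing bases, which are in capitals.
Abcb1a: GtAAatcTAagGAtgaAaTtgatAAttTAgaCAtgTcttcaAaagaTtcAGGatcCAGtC
Abcb1b: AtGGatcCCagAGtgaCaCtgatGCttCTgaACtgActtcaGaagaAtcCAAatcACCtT

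How the counting treated reads from shared runs was not stated, so the split between the pair is uncertain and the tests are also given for their summed reads. Exons of 3 members overlap a gene on the opposite strand: Abcc10 shares 51 bases (0.744% of its exon length) with Dlk2, Abcb1b 143 (1.79%) with Gm5106 and Abcb1a 553 (10.1%) with Gm42686. The kit kept strand, but whether the counting used it is not given, so reads there cannot be assigned with certainty.

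RefSeq (GRCm38.p6) listed start sites for 6 of the 9 members, Abcb1a, Abcb1b, Abcc2, Abcc4, Abcc5 and Abcc10, with 8 windows of 250 bases before a start. The windows of Abcb1b (chr5:8797897-8798146, plus strand) and Abcc4 (chr14:118706220-118706469, minus strand) are shown because these members' libraries did not overlap between vehicle and testosterone in wild type. Capitals mark matches on either strand to CCAAT (in 33.8% of 32851 RefSeq windows of this length), GGGCGG (32.7%) and TGACNNNGC, the core of the antioxidant response element (10.2%).
Abcb1b: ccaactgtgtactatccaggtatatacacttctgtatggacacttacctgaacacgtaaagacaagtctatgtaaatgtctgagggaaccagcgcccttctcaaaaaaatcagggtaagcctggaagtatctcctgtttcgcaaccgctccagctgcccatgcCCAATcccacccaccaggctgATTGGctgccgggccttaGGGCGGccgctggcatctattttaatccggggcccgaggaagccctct
Abcc4: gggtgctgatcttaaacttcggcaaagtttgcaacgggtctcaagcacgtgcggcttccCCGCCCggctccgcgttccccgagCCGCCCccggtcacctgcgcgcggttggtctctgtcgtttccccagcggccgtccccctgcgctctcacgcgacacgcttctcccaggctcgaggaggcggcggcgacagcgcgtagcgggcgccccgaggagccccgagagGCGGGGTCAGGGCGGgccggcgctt

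The Abcb1b window had 2 matches to CCAAT, 87 and 66 bases before the start, and 1 to GGGCGG, with 52.8% GC. The Abcc4 window shown, 1 of 2 for this gene, had 3 matches to GGGCGG and 1 to TGACNNNGC, 25 bases before the start and next to a GGGCGG match, with 72% GC and 35 CpG. TGACNNNGC was found in 4 of the 8 windows (10.2% of all windows), which belong to 3 of the 6 genes, Abcc2, Abcc4 and Abcc10. TATAAA (12.4% of all windows) was found in none of the 8. The RefSeq start of Abcb1a, at position 8567091, lies far before the GENCODE start of the gene, so its window is not that of the GENCODE gene model. A match describes letters only and shows no binding.

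Per length, Abcc2 had the highest mean of the 9 genes in every group. Its RPKM (CPM per kilobase of annotated exon) averaged 43.7 ± 14.3 in wild type vehicle, 58.6 ± 4.38 in wild type testosterone, 34.8 ± 8.49 in ARLmon vehicle and 36.7 ± 4.38 in ARLmon testosterone. Abcc4 followed with 10.8 ± 2.29 in wild type vehicle, overlapping Abcc5 at 6.74 ± 1.20, and with 26.9 ± 8.28 and 21.9 ± 1.29 in ARLmon with vehicle and testosterone. In ARLmon vehicle the libraries of Abcc4 and Abcc2 overlapped, and in GC078621 Abcc4 was the higher, at 34.69 against 34.56 RPKM. In wild type testosterone it averaged 5.05 ± 0.458, overlapping Abcc5 at 5.4 ± 0.248. The other end of the order differed more. Abcc3 was lowest in wild type vehicle at 0.859 ± 0.240 RPKM, overlapping its neighbour Abcb1a, yet the third in ARLmon at 7.39 ± 2.97 with vehicle and 8.81 ± 4.20 with testosterone, overlapping Abcc5 there. Abcb1b was lowest in wild type testosterone, at 0.369 ± 0.0987 RPKM, and none of its libraries reached those of the gene above it, Abcc3.

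The order below Abcc2 depended on the gene length used. By the longest transcript Abcc5 averaged 12.4 ± 2.20 RPKM in wild type vehicle and Abcc4 12.1 ± 2.56. In ARLmon, Abcc5 was then above Abcc3, at 10.2 ± 1.66 against 8.41 ± 3.38 with vehicle and 11.99 ± 0.894 against 10.03 ± 4.78 with testosterone. In wild type testosterone, Abcb1b (0.685 ± 0.183), Abcb1a (0.703 ± 0.203) and Abcc3 (0.718 ± 0.159) were then about level.

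**Figure D1:**
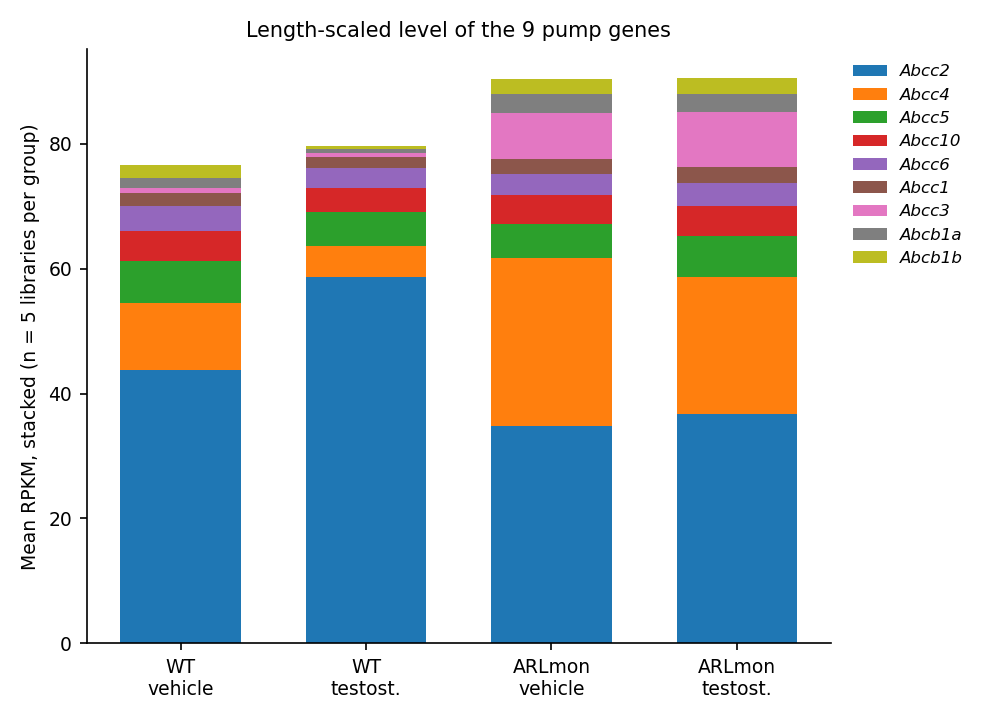
Mean RPKM of the 9 pump genes, stacked for each group of 5 libraries. Abcc2 makes up most of each wild type bar, and the Abcc4 and Abcc3 blocks are taller in the ARLmon bars.

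Summed over the 9 genes, the level was 76.7 ± 17.3 RPKM in wild type vehicle, 79.6 ± 4.13 in wild type testosterone, 90.4 ± 14.8 in ARLmon vehicle and 90.6 ± 9.57 in ARLmon testosterone. The makeup differed more than the sum. Abcc2 held 56.1 ± 6.39% of it in wild type vehicle and 73.6 ± 2.28% in wild type testosterone, against 38 ± 4.43% and 40.5 ± 1.28% in ARLmon, and the 4 ranges overlapped only between the ARLmon groups. The 8 other genes together came to 32.9 ± 4.37 RPKM in wild type vehicle and 20.96 ± 1.42 in wild type testosterone, with 55.6 ± 7.12 and 53.9 ± 5.41 in the ARLmon groups. With the length of the longest transcript instead of all exons, Abcc2 remained first, at 49.1% and 67.1% of the sum in wild type and 33.6% and 35.4% in ARLmon. These shares and sums are descriptions and were not tested.

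Abcc4 (ENSMUSG00000032849, chromosome 14, 118482692 to 118706219) encodes an apical pump for urate, cyclic nucleotides and other organic anions. In wild type it stood at 70.6, 88.2, 47.0, 68.6 and 70.9 CPM with vehicle and at 32.2, 31.0, 30.4, 30.5 and 37.3 with testosterone. In ARLmon the values were 227, 101, 149, 161 and 222 CPM with vehicle and 126, 145, 147, 142 and 141 with testosterone. Every wild type testosterone library lay below every wild type vehicle library, and every ARLmon library lay above all wild type ones.

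Abcb1b, which together with Abcb1a encodes P-glycoprotein, stood at 13.4, 17.9, 8.76, 16.6 and 26.6 CPM in wild type vehicle libraries and at 1.77, 3.63, 2.52, 3.47 and 3.37 with testosterone. ARLmon libraries held 22.04, 16.1, 23.6, 24.6 and 10.8 CPM with vehicle and 20.5, 22.4, 20.3, 26.3 and 18.6 with testosterone. Wild type testosterone was thus the low group, with no overlap with any other, while the remaining groups overlapped. For Abcb1a the values were 9.26, 10.6, 4.73, 9.46 and 10.02 CPM in wild type with vehicle and 2.45, 3.02, 5.17, 3.47 and 3.47 with testosterone. ARLmon libraries held 21.4, 10.9, 16.8, 18.3 and 13.9 CPM of Abcb1a with vehicle and 11.7, 15.6, 13.5, 20.9 and 15.9 with testosterone. The wild type groups of Abcb1a overlapped only through vehicle library GC078604, which at 4.73 CPM lay below the highest testosterone library, and both ARLmon groups lay above both wild type groups.

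Abcc2 (ENSMUSG00000025194, chromosome 19, 43782192 to 43840740) encodes the apical pump for glutathione and glucuronide conjugates. Its wild type levels were 539, 434, 245, 384 and 263 CPM with vehicle and 487, 457, 480.5, 549.8 and 527 with testosterone. In ARLmon they were 333, 174, 320.1, 361 and 295 CPM with vehicle and 269, 316, 322, 369 and 291 with testosterone. Wild type vehicle spanned a wide range that overlapped every other group, and wild type testosterone lay above both ARLmon groups.

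Abcc3 (ENSMUSG00000020865, chromosome 11, 94343295 to 94392997), a basolateral pump for glucuronides that returns them to the blood, stood at 4.58, 3.60, 4.16, 4.95 and 7.17 CPM in wild type vehicle and 2.72, 3.87, 3.85, 2.88 and 4.65 in wild type testosterone libraries. ARLmon libraries held 36.4, 62.5, 49.996, 44.6 and 16.99 CPM with vehicle and 48.03, 43.4, 40.5, 90.9 and 28.1 with testosterone. All 10 ARLmon libraries lay above all 10 wild type libraries, and the ARLmon libraries differed among themselves from 16.99 to 90.9 CPM.

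Abcc1 (ENSMUSG00000023088, chromosome 16, 14361558 to 14475737) encodes a basolateral pump for glutathione conjugates and leukotrienes. It averaged 32.0 ± 4.47 and 28.3 ± 2.19 CPM in wild type with vehicle and testosterone, and 35.7 ± 3.46 and 38.9 ± 3.30 in ARLmon. Abcc5 (ENSMUSG00000022822, chromosome 16, 20331303 to 20426394), a pump for cyclic nucleotides, averaged 72.0 ± 12.8, 57.7 ± 2.65, 59.2 ± 9.63 and 69.7 ± 5.19 CPM in the same order. Abcc6 (ENSMUSG00000030834, chromosome 7, 45967555 to 46030302), known for its part in ATP release and the prevention of ectopic mineralisation, averaged 23.0 ± 3.06, 18.1 ± 2.79, 19.5 ± 2.20 and 21.04 ± 1.44 CPM. For Abcc10 (ENSMUSG00000032842, chromosome 17, 46303221 to 46328352), a pump for glucuronides and taxane drugs, the means were 32.2 ± 3.08, 26.2 ± 5.72, 31.7 ± 2.04 and 33.2 ± 4.77 CPM. The groups of each of these 4 genes mostly overlapped, the exceptions being Abcc1 and Abcc5 between the genotypes with testosterone.

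**Figure D2:**
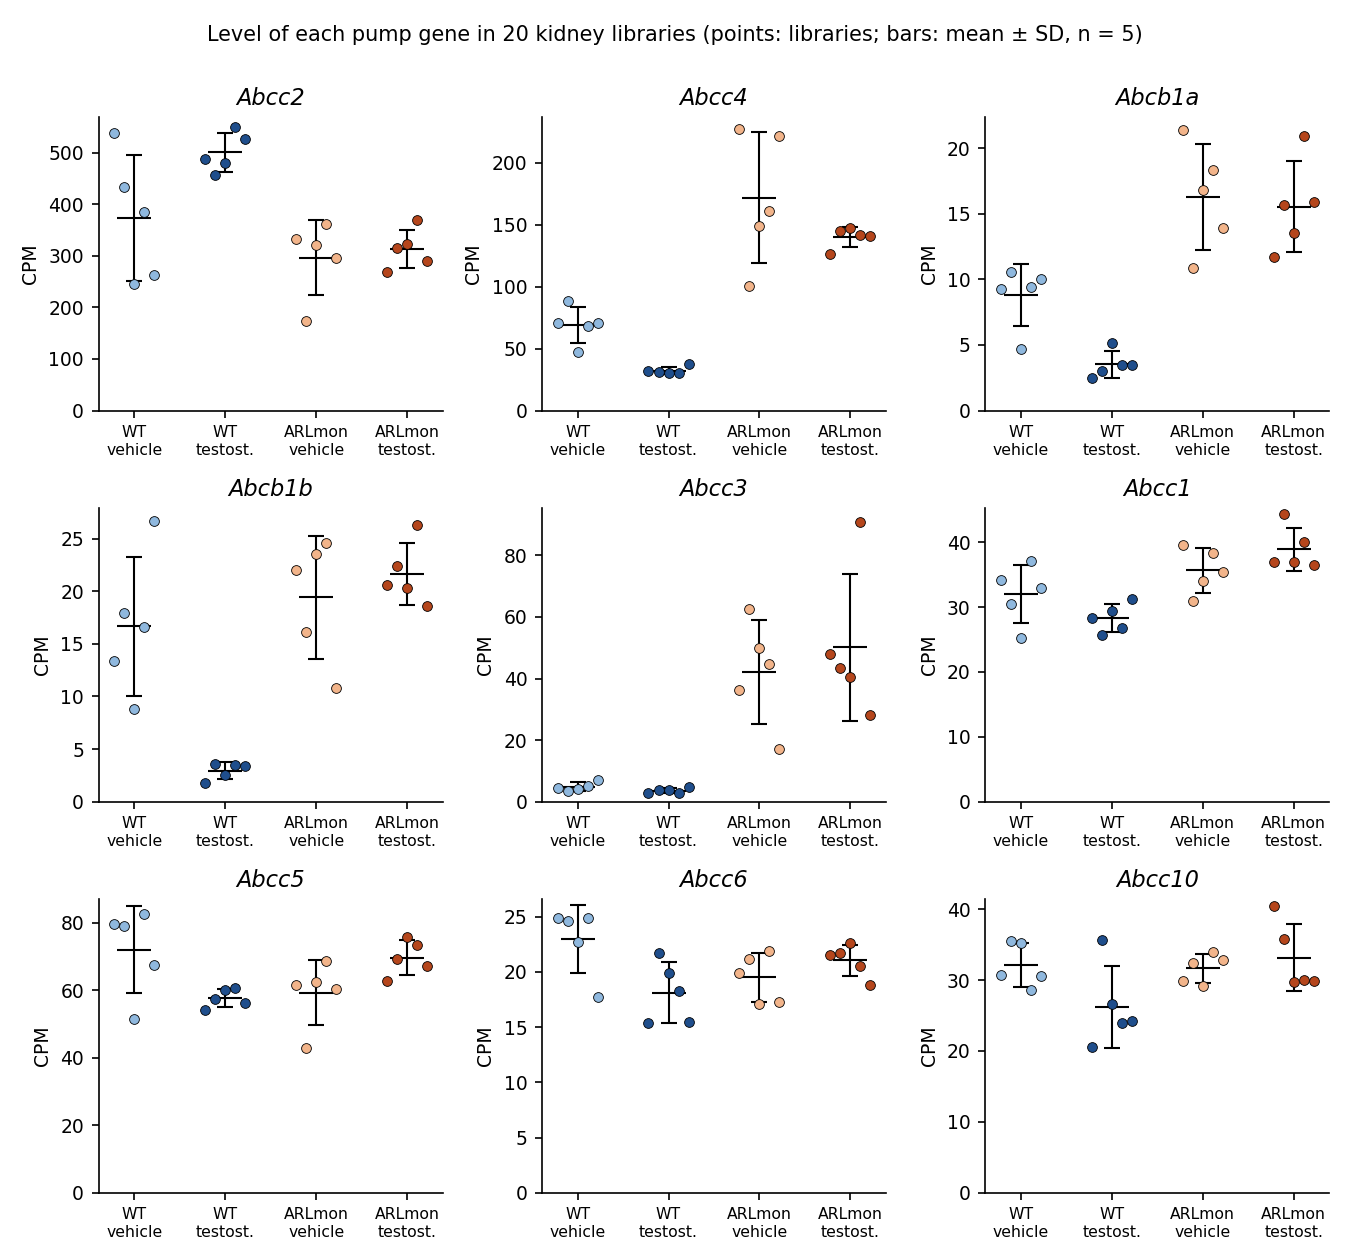
CPM of each pump gene (vertical axis, from 0) in the 4 groups. Points are libraries and bars the mean ± SD of 5. Abcb1b is lowest in wild type testosterone (1.77 to 3.63 CPM), and Abcc3 and Abcc4 are higher in every ARLmon library than in any wild type library.

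The first comparison asked what testosterone changes in wild type kidneys. Abcb1b, Abcb1a, Abcc4 and Abcc6 fell, which is 4 of the 9 genes where 6.36% of the 15549 genes tested fell, and none rose (9.36% of all genes rose). Abcb1b fell most, by a log2 change of -2.45 ± 0.28 (the error of a log2 change is its SE; edgeR adjusted p = 1.85e-06), which is 5.46-fold. Abcb1a changed by -1.32 ± 0.24 (adjusted p = 0.000553), and the summed reads of the pair by -1.96 ± 0.23 (adjusted p = 3.06e-06). Abcc4 changed by -1.10 ± 0.18 (adjusted p = 0.000136) and Abcc6 by -0.35 ± 0.12 (adjusted p = 0.045). In whole kidney RNA, fewer cells of a type and less RNA per cell cannot be told apart.

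Groups did not overlap for 2 genes, Abcc4 and Abcb1b, both lower with testosterone (4.21% of all genes). Abcc2, the most abundant pump, had the only positive value, 0.42 ± 0.19 with a 95% interval of 0.03 to 0.82 (adjusted p = 0.14), and was not called. Abcc5 at -0.32 ± 0.12 (adjusted p = 0.0795), Abcc10 at -0.30 ± 0.12, Abcc1 at -0.18 ± 0.10 and Abcc3 at -0.41 ± 0.36 did not pass either. The median over the 9 genes was -0.35, against -0.03 over all genes. The call for Abcc6 was lost when any of 10 libraries was left out (GC078602, GC078603, GC078604, GC078605, GC078607, GC078610, GC078611, GC078613, GC078614 or GC078617), at log2 values of -0.36 to -0.29 and adjusted p of 0.054 to 0.123. It was also lost with no filter on low counts (adjusted p = 0.0548), with the libraries of the pair of groups alone (0.0876) and without GC078604 and GC078618 together (0.0533). Conversely, Abcc2 was called at 0.59 without GC078602 (adjusted p = 0.0307) and Abcc10 at -0.43 without GC078608 (adjusted p = 0.0105). Abcc5 was called at -0.42 without GC078604 and -0.32 without GC078618 (adjusted p = 0.00906 and 0.0379). Library size as the only scaling called Abcc1, Abcc5 and Abcc10 lower as well. The deposited log2 values called Abcc5 and Abcc10, and the fit without GC078604 and GC078618 together called Abcc5.

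In ARLmon kidneys none of the 9 genes passed the test for a change with testosterone, and edgeR called 0 of all 15549 genes (0%), with 813 genes but none of the 9 members at an unadjusted p below 0.05. DESeq2 and limma-voom called 0 genes as well. The members' log2 values ran from -0.29 ± 0.17 for Abcc4 to 0.26 ± 0.28 for Abcc3, and each overlapped between vehicle and testosterone libraries (0.778% of all genes did not). For Abcb1b the value was 0.16 ± 0.24 with an interval of -0.33 to 0.65, for Abcb1a -0.06 ± 0.21 (-0.50 to 0.38), for the summed pair 0.06 ± 0.21 (-0.37 to 0.49) and for Abcc4 -0.29 ± 0.17 (-0.65 to 0.06). The interval of Abcb1b therefore did not reach the wild type interval of -3.03 to -1.86. For Abcc2 the interval was -0.31 to 0.47 and for Abcc3 -0.33 to 0.85, so changes of such sizes in either direction remain possible. These intervals are not limits of detection, because calls were adjusted over all genes tested.

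Tested directly as a difference of responses, ARLmon minus wild type, 2 of the 9 genes differed (1.42% of all genes were higher in this sense and 3.34% lower): Abcb1b at 2.61 ± 0.37 (adjusted p = 9.41e-05) and Abcb1a at 1.26 ± 0.32 (adjusted p = 0.0232). The summed pair gave 2.02 ± 0.31 (adjusted p = 0.00026). Abcc4 at 0.80 ± 0.24 (adjusted p = 0.0652), Abcc5 at 0.55 ± 0.17 (0.0696) and Abcc6 at 0.46 ± 0.16 (0.127) missed the threshold, and so did Abcc1, Abcc2, Abcc3 and Abcc10, with adjusted p of 0.282 to 0.582. The call for Abcb1a was lost with limma-voom (1.23, adjusted p = 0.0595) and without wild type testosterone library GC078607 (1.16, adjusted p = 0.0519). Abcc4 was called at 0.91 to 0.92 without GC078604, GC078617 or GC078621 (adjusted p of 0.017 to 0.0318) and with DESeq2 (0.80, adjusted p = 0.0317). It was also called with library size as the only scaling, without GC078604 and GC078618 together, and from the deposited log2 values. Abcc5 was called at 0.65 without GC078604 and 0.61 without GC078620. Library size alone, DESeq2 and the fit without GC078604 and GC078618 called it too. Abcc6 was called at 0.53 without GC078606, with library size alone and from the deposited log2 values.

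**Figure D3:**
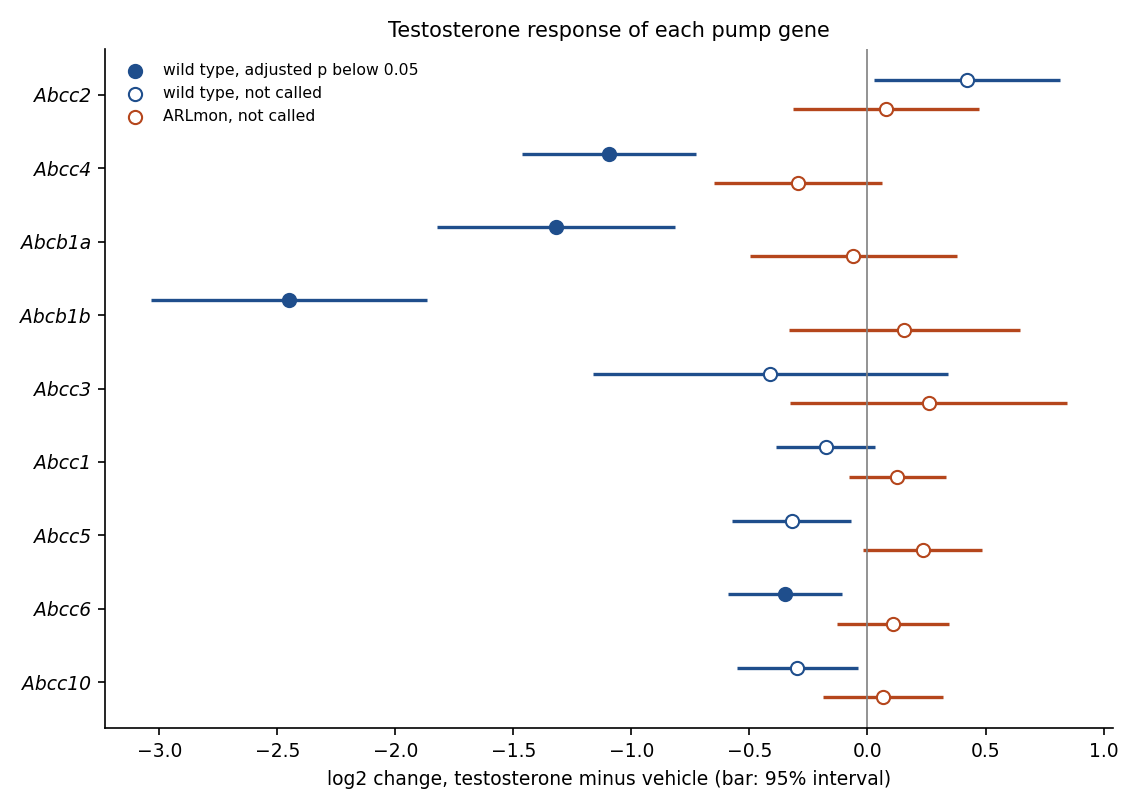
log2 change with testosterone (horizontal axis) of each pump gene in wild type and ARLmon. Bars are 95% intervals and filled points passed an adjusted p of 0.05. Only wild type points of Abcc4, Abcb1a, Abcb1b and Abcc6 are filled, and no ARLmon point is.

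The balance within the P-glycoprotein pair also differed. Of the reads of both genes, Abcb1b held 59.1, 62.8, 64.95, 63.7 and 72.7% in wild type vehicle libraries and 41.9, 54.5, 32.8, 50 and 49.3% in wild type testosterone libraries, with no overlap. In ARLmon the shares were 50.7, 59.7, 58.4, 57.4 and 43.8% with vehicle and 63.6, 58.9, 60.04, 55.6 and 53.9% with testosterone. The wild type fall was 18.9 percentage points, from 64.6 ± 4.99 to 45.7 ± 8.53% (2-sided exact permutation test, p = 0.00794, the smallest that 5 against 5 can give; adjusted over 5 comparisons, p = 0.0265). Between genotypes the share was 10.7 points lower in ARLmon with vehicle and 12.7 points higher with testosterone (exact permutation p = 0.0159 and adjusted p = 0.0265 for each). The 4.44 points by which ARLmon testosterone exceeded ARLmon vehicle gave an exact permutation p of 0.246, and ARLmon testosterone against wild type vehicle, -6.22 points, 0.0556 (adjusted 0.0694). The wild type testosterone shares rest on 31 to 94 reads per library.

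**Figure D4:**
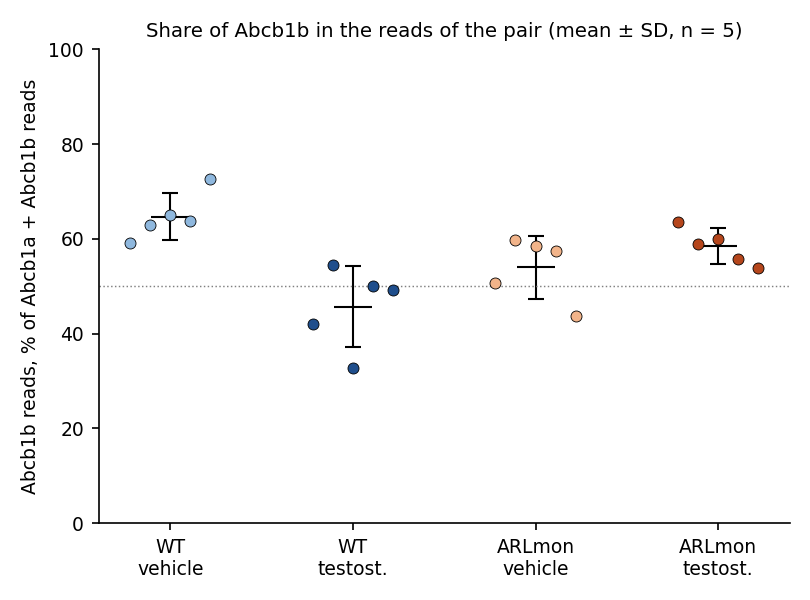
Share of Abcb1b (%, vertical axis) in the reads of Abcb1a and Abcb1b, by library, with the mean ± SD of 5. All wild type vehicle libraries lie above 59% and all wild type testosterone libraries below 55%.

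The genotypes were first compared with vehicle. Abcc3, Abcc4 and Abcb1a were higher in ARLmon, 3 of the 9 genes where 1.99% of all genes were, and the same 3 were the members whose groups did not overlap (2.18% of all genes in that direction). Abcc3 was higher by 3.14 ± 0.32, or 8.79-fold (edgeR adjusted p = 1.28e-06), Abcc4 by 1.32 ± 0.17, or 2.49-fold (4.52e-05), and Abcb1a by 0.89 ± 0.21, or 1.86-fold (0.0169). Its partner Abcb1b, at 0.24 ± 0.24 (-0.25 to 0.73), was not called, nor was the summed pair at 0.50 ± 0.21 (adjusted p = 0.204).

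No member was lower (2.38% of all genes were). The remaining values with vehicle were -0.33 ± 0.19 for Abcc2, -0.28 ± 0.12 for Abcc5, -0.24 ± 0.11 for Abcc6, -0.02 ± 0.12 for Abcc10 and 0.16 ± 0.10 for Abcc1. The call for Abcb1a was lost without ARLmon library GC078617 (0.77, adjusted p = 0.0569) with the libraries of the pair of groups alone (0.89, adjusted p = 0.0756) and from the deposited log2 values (0.85, adjusted p = 0.0724). Without wild type library GC078604 Abcc5 was called lower, at -0.38 (adjusted p = 0.0293), and so it was without GC078604 and GC078618 together.

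With testosterone the genotypes differed for 7 of the 9 genes, where 31.1% of all genes differed. Abcc3, Abcb1b, Abcb1a, Abcc4, Abcc1 and Abcc10 were higher in ARLmon (15.6% of all genes) and Abcc2 was lower (15.5%). Abcc3 differed by 3.81 ± 0.35 or 13.99-fold (edgeR adjusted p = 3.13e-08), Abcb1b by 2.85 ± 0.28 or 7.19-fold (1.03e-07), Abcb1a by 2.15 ± 0.24 or 4.44-fold (6.55e-07) and Abcc4 by 2.12 ± 0.18 or 4.34-fold (1.12e-08). The summed P-glycoprotein reads differed by 2.52 ± 0.23 (adjusted p = 4.21e-08).

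Abcc1 was higher by 0.46 ± 0.10 (adjusted p = 0.00154), with wild type libraries at 28.3, 25.8, 29.4, 26.7 and 31.3 CPM and ARLmon libraries at 36.9, 44.3, 37.0, 39.99 and 36.5, which did not overlap. Abcc2 was lower by a log2 value of -0.68 ± 0.19 (adjusted p = 0.00988). Groups did not overlap for Abcc1, Abcc3, Abcc4, Abcc5, Abcb1a and Abcb1b, which were higher in ARLmon (9.44% of all genes), and for Abcc2, which was lower (13.1%). Abcc5 at 0.27 ± 0.12 (0.095) and Abcc6 at 0.21 ± 0.12 (0.172) were not called. Abcc2 was not called with library size as the only scaling (-0.43, adjusted p = 0.0794) or from the deposited log2 values (-0.45, adjusted p = 0.126). Abcc10, at 0.34 ± 0.12 (0.042), was lost without any of GC078603, GC078607, GC078609, GC078610, GC078611, GC078612 or GC078613 (0.26 to 0.35, adjusted p of 0.0571 to 0.127). It was also lost with RLE factors (adjusted p = 0.0505), no filter on low counts (0.0538) and the pair of groups alone (0.0622). Abcc5 was called without GC078604 (0.27, adjusted p = 0.0414), with library size alone and with the pair of groups alone. The fit without GC078604 and GC078618 together and the deposited log2 values called it too. Abcc6 was called with library size alone and from the deposited log2 values.

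**Figure D5:**
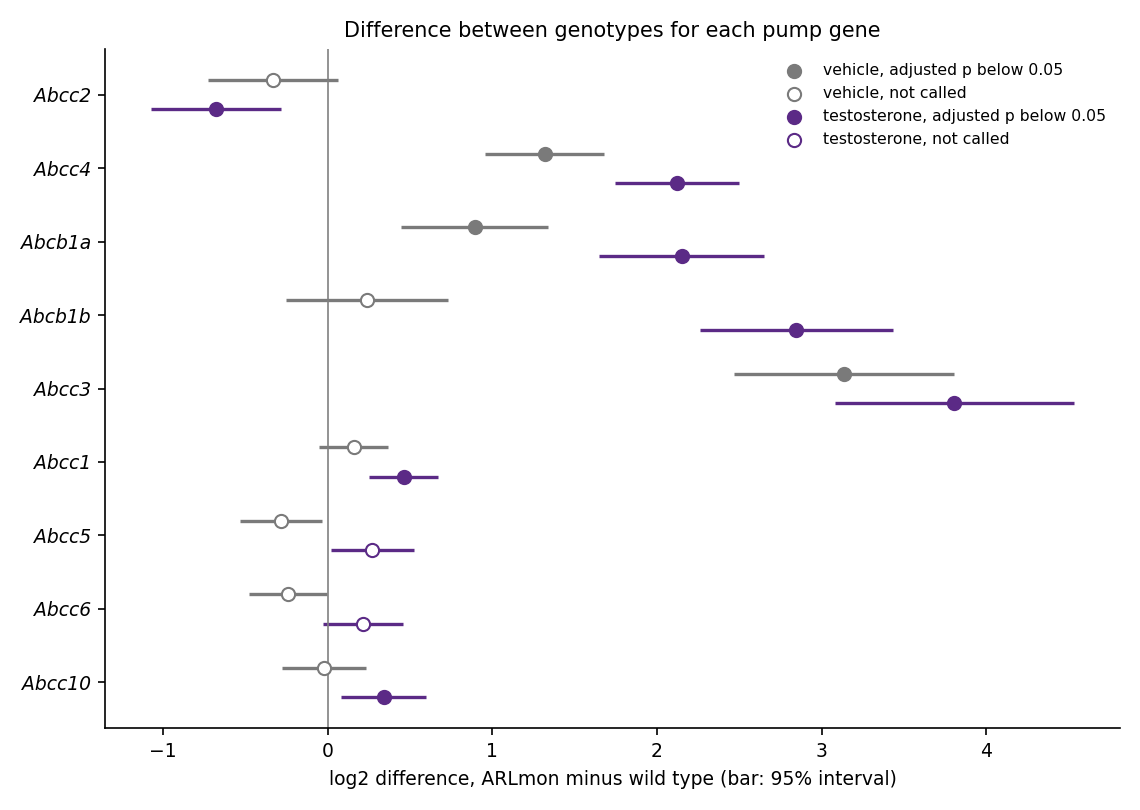
log2 difference of each pump gene, ARLmon minus wild type (horizontal axis), with vehicle and with testosterone. Bars are 95% intervals and filled points passed an adjusted p of 0.05. Abcc3 and Abcc4 are filled and to the right of 0 in both, and Abcb1b is filled only with testosterone.

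ARLmon kidneys with testosterone were also set beside wild type kidneys without it. Abcc3 (3.40 ± 0.32, edgeR adjusted p = 4.95e-07), Abcc4 (1.02 ± 0.17, 0.000956) and Abcb1a (0.83 ± 0.21, 0.0344) were higher in ARLmon, 3 of 9 where 1.25% of all genes were, and their groups did not overlap (1.81%). No member was called lower (1.78% of all genes were). Abcb1b stood at 0.40 ± 0.24 (-0.09 to 0.89) and the summed reads of the pair at 0.56 ± 0.21 (adjusted p = 0.183), and neither was called. This comparison shares its wild type libraries with the vehicle comparison and its ARLmon libraries with the testosterone comparison, so the 3 sets of values are not independent. The call for Abcb1a was lost without GC078604, GC078605, GC078613, GC078615 or GC078616 (0.67 to 0.86, adjusted p of 0.0626 to 0.104), with the pair of groups alone (0.83, adjusted p = 0.0869) and from the deposited log2 values (0.84, adjusted p = 0.0993).

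Other genes of the same transport route were followed from lists. Of 17 uptake carriers that feed the pumps from the blood or reabsorb their substrates, 8 rose in wild type with testosterone and 3 fell. Of all genes, 9.36% rose and 6.36% fell. The median log2 change of the 17 was 0.41. Among them were Slco1a1, an organic anion carrier (6.20 ± 0.23), Slco3a1 (1.48 ± 0.13), Slc22a6, the basolateral organic anion exchanger (0.87 ± 0.12), and the urate exchanger Slc22a12 (0.41 ± 0.12). With testosterone, 8 of the 17 were lower and 4 higher in ARLmon (15.5% and 15.6% of all genes), Slc22a6 at -1.68 ± 0.13 and Slco3a1 at -2.72 ± 0.14 among the lower. With vehicle, 5 of the 17 were already lower in ARLmon (2.38% of all genes) and none was higher. Slc22a6 at -0.76 ± 0.12 and Slco3a1 at -1.43 ± 0.14 were among these. The uptake list summed to 4553 to 6371 CPM per library in wild type vehicle and 7608 to 8461 in wild type testosterone, and 3764 to 5442 over the ARLmon libraries.

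Most of the other apical exit carriers rose in wild type, where several pumps fell. With testosterone 4 of 5 tested rose (9.36% of all genes). They were Slc17a3 by 1.63 ± 0.17, Slc17a4 by 1.07 ± 0.22, Slc17a1 by 0.62 ± 0.08 and the cation exchanger gene Slc47a1 by 0.58 ± 0.11. Abcg2, the ABC half-transporter for urate and conjugates, was not called at 0.18 ± 0.09. With testosterone all 5 were lower in ARLmon (15.5% of all genes), from -1.97 ± 0.17 for Slc17a3 to -0.41 ± 0.09 for Abcg2. With vehicle 2 of the 5 were already lower in ARLmon (2.38% of all genes), Slc17a1 at -0.59 ± 0.08 and Slc47a1 at -0.43 ± 0.11, and none was higher. Of 33 tested ABC transporters outside the 9, Abcg2 included, 3 rose and 3 fell in wild type, with a median of -0.01. That is near the shares of all genes, of which 9.36% rose and 6.36% fell. They included Abca3, a lipid transporter (0.41 ± 0.08), the peroxisomal Abcd3 (0.45 ± 0.09) and the peptide transporter subunit Tap2 (-0.60 ± 0.15).

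Among 13 tested regulators of pump genes, 2 rose and 2 fell in wild type with testosterone, where 9.36% of all genes rose and 6.36% fell. Nr1i2, which encodes the xenobiotic receptor PXR, fell by 1.45 on the log2 scale (SE 0.16), from 12.97 to 4.77 CPM on average, and was at 16.2 and 14.8 CPM in ARLmon with vehicle and testosterone. Its response differed between genotypes by 1.32 ± 0.21 (edgeR adjusted p = 0.00044). Nr1h4, the bile acid receptor gene, rose by 0.83 ± 0.13 and Hnf4a by 0.31 ± 0.09. Of 11 tested Nrf2 targets and glutathione genes, 4 rose, Ggt1 (0.82 ± 0.16), Gss (0.58 ± 0.14), Gclm (0.48 ± 0.15) and Gsr (0.44 ± 0.12), and 1 fell. Of 8 genes for scaffold and partner proteins of apical transporters, Slc9a3r1 (0.48 ± 0.14) and Cftr (0.70 ± 0.22) rose and Slc9a3r2 fell (-0.56 ± 0.14). In ARLmon, no gene of these lists was called changed by testosterone, nor was any other tested gene.

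Markers of cell types were followed in the same contrasts. In wild type with testosterone, 9.36% of all genes rose and 6.36% fell. In ARLmon against wild type, 15.6% of all genes were higher and 15.5% lower with testosterone, and 1.99% and 2.38% with vehicle. Of the 10 proximal tubule markers, 2 rose and 1 fell in wild type with testosterone, 1 was lower in ARLmon with vehicle, and 1 was higher and 2 lower in ARLmon with testosterone. In wild type with testosterone, 8 of 10 straight proximal tubule markers rose (summed level 3662 to 5789 CPM per library with vehicle, 12805 to 16681 with testosterone). Among them, Acsm3 averaged 161 CPM with vehicle and 2508 with testosterone, and Slc7a13 170 and 1006 (1.25 in ARLmon vehicle). Changes of single genes and a changed share of straight tubule cells cannot be told apart here, so this list does not measure cell share. In the same wild type groups, 7 of 8 podocyte markers (452 to 699 and 348 to 442), 2 of 12 endothelial markers (486 to 751 and 488 to 544) and 2 of 10 fibroblast and mural markers (594 to 943 and 466 to 678) fell. No marker of these lists had a positive value there, with medians of -0.53, -0.29 and -0.25 in the same order. None of 12 loop, distal and collecting duct markers passed the test there, although all 12 had negative values (median -0.26; summed level 5268 to 6796 CPM with vehicle and 4091 to 5613 with testosterone). Of 10 leukocyte markers tested, 1 was called there, Csf1r, which rose (0.52 ± 0.15). The median of the 10 was -0.24, and 4 had positive values. With testosterone, ARLmon had 8 of 8 podocyte (613 to 744 CPM), 9 of 12 endothelial (611 to 809), 5 of 10 fibroblast and mural (606 to 915), 5 of 10 leukocyte (324 to 797, against 243 to 408 in wild type) and 6 of 12 loop, distal and collecting duct markers (5195 to 7192, against 4091 to 5613) higher than wild type, and 6 of 10 straight tubule markers lower (3782 to 6203). In the other direction, Csf1r was lower (-0.39 ± 0.15) and 1 straight tubule marker higher. With vehicle, 4 of 12 loop, distal and collecting duct markers and 1 of 8 podocyte markers were higher in ARLmon, and 5 of 10 straight tubule markers were lower and 1 higher. The leukocyte marker Adgre1 was not analysed here. Abcb1a, Abcb1b, Abcc3 and Abcc4 are also expressed outside the proximal tubule, and the part of these markers in their differences was not tested.

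Over the 20 libraries and 10793 genes with at least 5 CPM on average, the genes whose log2 CPM followed each of the 8 pumps called in some comparison (all but Abcc5) most closely were ranked by Pearson's r, as a description in which group differences and library scaling are shared. Abcc4 was most like Ugt1a2 (r = 0.967), Acss1 (0.965) and Acsf2 (0.962), and reads of Ugt1a2 can be shared with other Ugt1a genes. Abcb1a was most like Ccdc68 (0.953), Oat (0.947) and Abcc4 itself (0.944), and Abcb1b like Pla2g5 (0.942), Kcnc2 (0.941) and Prom1 (0.941). Abcc3 was most like Acot7 (0.948), Foxq1 (0.934) and Mgat4a (0.928), Abcc2 like Zfp367 (0.966), Spag9 (0.951) and Zbtb20 (0.950), and Abcc1 like Myof (0.910), Vgll4 (0.903) and Twsg1 (0.899). Abcc10 was most like Arhgef1 (0.899), Fam193b (0.867) and Phldb1 (0.858), and Abcc6 had the weakest likeness of the 8, with Ccdc34 (0.777), Srcin1 (0.766) and Myh11 (0.753).

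Within groups, with each group's mean removed, the pumps varied together to different degrees. Abcc2 and Abcc5 had the highest r, 0.88, and Abcb1a and Abcb1b had 0.62, against 0.91 over all libraries. Abcc3 and Abcc4, which were both higher in ARLmon and had r = 0.83 over all libraries, had -0.41 within groups, the lowest of all pairs. Each r pools the groups, and the weight of single libraries in it was not tested. In ARLmon vehicle, GC078618 had the highest Abcc3 (62.5 CPM) and the lowest Abcc4 (101 CPM). GC078604 and GC078618 were the lowest of their groups for both Abcc2 and Abcc5.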

How the data were processed

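RNA of 20 mouse kidney libraries, 5 in each of 4 groups, was made into stranded mRNA libraries (TruSeq) and read on an Illumina HiSeq4000, per the labels' protocols. The submitters' processing notes list the mm10 build, HISAT2, DESeq2, SAMtools 1.5, FastQC 0.11.7 and, in that form, HTSeq 2.7.14; settings, annotation and strand setting are not given in the sources used here. The authors deposited 4 tables of whole-number raw counts, each for a pair of groups, and a table of log2 values for 20550 genes, exported from Qlucore per the file headers, whose normalization is not stated.

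The count tables were joined into 24762 genes by 20 libraries. All 455975 values held by more than 1 table were equal, and 12045 values in 1713 genes absent from a library's table were set to 0. Column codes name the group of a library but carry no replicate number. Within groups, libraries differed by a chi-square of 5.23 to 139 per degree of freedom, so none was a copy.

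Counts were fitted in R 4.3.3 with the quasi-likelihood test of edgeR 4.0.16, with 4 group means and 16 residual degrees of freedom, after filterByExpr and TMM scaling. All 9 pump genes were among the 15549 tested, and calls use a Benjamini-Hochberg adjusted p below 0.05 over all of these. Each SE was derived from the F statistic of its log2 change. RPKM divides CPM by the union of annotated exons (GENCODE M21, GRCm38), which need not be the authors' annotation. Named genes are the 9 members, up to 4 genes of each list with the smallest p in the wild type testosterone comparison or between genotypes with testosterone, and the 3 genes most like each member called in any comparison, without predicted or unnamed genes. Odc1 was added as a gene known to respond to androgen, Adgre1 as a marker not analysed here, and Csf1r was named after its values were seen. The altered gene is not reported here. The members, lists and tests were chosen with earlier results of these data known.

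Alternatives were scaling by RLE factors or by library size alone, other filters, DESeq2 1.42.0, limma-voom (limma 3.58.1), fits with only the groups compared, fits lacking the 10 most abundant genes, limma on the log2 table, the fit without GC078604 and GC078618, each library left out, and the longest transcript as gene length. Figures were drawn with matplotlib 3.10.9.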

Additional observations from a re-analysis of the deposited data

Results flagged for a closer look

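Of 36 sets of 5 libraries (9 genes in 4 groups), 3 held a library far from the rest, and chance alone flags about 1 in 20 such sets. For Abcc4 in wild type testosterone, library GC078611 stood at 37.3 CPM and the others at 30.4 to 32.2. For Abcc4 in ARLmon testosterone, library GC078612 stood at 126 CPM and the others at 141 to 147. For Abcb1a in wild type vehicle, library GC078604 stood at 4.73 CPM and the others at 9.26 to 10.6.

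The testosterone response differed between genotypes, by the test of the difference itself, for Abcb1a (1.26 on the log2 scale) and Abcb1b (2.61), since both fell in wild type and neither was called changed in ARLmon.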

How the results depend on the processing

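No paired analysis was possible because the columns carry library codes and not the replicate numbers of the labels, so the fit with a replicate block was not run. Over 1611 refits of the members' log2 values, 1524 kept their direction and side of the threshold, 37 lost a call, 34 gained one and 16 reversed. All 568 refits of the 19 called results kept their direction, and 531 kept the call. The summed reads of Abcb1a and Abcb1b were refitted as 1 gene in the same way.

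In wild type, 4 members were called for testosterone and 7 with library size as the only scaling, which moved the median of all genes from -0.03 to -0.18 and the calls over all genes from 1455 higher and 989 lower to 897 and 2687. Limma on the deposited log2 values, with a median of -0.16, gave 996 and 2570. Between genotypes with testosterone the median moved from 0.04 to 0.28 and the calls from 2431 higher and 2411 lower to 5690 and 1213 (from the log2 values 0.27, 6045 and 1400). With vehicle, 310 higher and 370 lower became 550 and 275 (385 and 248 from the log2 values), for ARLmon testosterone against wild type vehicle 195 and 276 became 370 and 193 (255 and 178), and for the difference of responses 221 and 520 became 715 and 340 (544 and 344). Under both settings Abcc3, Abcc4, Abcb1a and Abcb1b kept their directions in every comparison. Over all genes, calls with vehicle went from 680 to 330 with the pair of groups alone, 413 without GC078605 and 1211 without GC078604. For ARLmon testosterone against wild type vehicle they went from 471 to 731 with DESeq2 and 255 with the pair alone.

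For the difference of responses, 2 members were called, but 5 with library size as the only scaling, 4 with DESeq2, with limma on the log2 table and without GC078604 and GC078618, and 1 with limma-voom. Leaving out each library in turn gave 1 (without GC078607) to 4 (without GC078604). The cause was not tested.

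No reversed value had been called. Without GC078604 and GC078618 together, the ARLmon response turned to -0.063 for Abcc2 and -0.022 for the summed Abcb1a and Abcb1b reads. The vehicle difference of Abcc10 turned to 0.050 with library size alone, 0.0064 without those libraries and 0.047 on the log2 table. For ARLmon testosterone against wild type vehicle, Abcc5 turned to 0.042 and 0.056 with library size alone and on the log2 table. With each library left out in turn, the ARLmon response ranged from -0.063 to 0.16 for Abcc2, -0.071 to 0.44 for Abcc3, -0.013 to 0.10 for Abcc10, -0.19 to 0.056 for Abcb1a and -0.047 to 0.14 for the summed pair. The vehicle difference of Abcc10 ranged from -0.063 to 0.014, and ARLmon testosterone against wild type vehicle from -0.15 to 0.0066 for Abcc5 and -0.036 to 0.079 for Abcc10.

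By the longest transcript, mean RPKM over the 20 libraries moved from 2.23 to 4.96 for Abcc1, 6.05 to 11.1 for Abcc5, 3.57 to 4.10 for Abcc6, 4.49 to 5.85 for Abcc10 and 1.90 to 3.52 for Abcb1b. Depth limits Abcb1b, Abcb1a and Abcc3 most, with 13 to 47, 18 to 47 and 20 to 47 reads per library in wild type testosterone.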
